A study of Danio rerio with 34 samples.

Results

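The collagen genes of the adult zebrafish testis were taken as every gene whose symbol, in any case, begins with col, a number, the letter a and a number, and that had at least 10 counts in 6 or more of the 18 RNA libraries. Of 56 gene identifiers with such a symbol, 54 met the count minimum, out of 24059 genes of any kind that met it. Just inside the minimum were COL10A1 (ENSDARG00000054753), with 9 libraries at 10 counts or more, col24a1 with 13 and col7a1l (ENSDARG00000093135) with 14. Just outside were a further COL10A1 identifier (ENSDARG00000101535), with 3 such libraries, and a further col19a1 identifier (ENSDARG00000096073), with 4. The name table gives some zebrafish genes in human capitals and gives 5 of these symbols to 2 identifiers each, so identifiers are printed where a symbol is shared.

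Collagens are secreted proteins in which chains wind around each other into a rope-like helix, and they form most of the fibrous matrix between cells. Fibrillar types bundle into fibrils, fibril-associated types sit on fibril surfaces, type IV builds the sheet of the basement membrane, and type VI makes beaded filaments around cells. In the testis, basement membranes and a thin layer of matrix-producing peritubular cells surround the germ cell compartment, and looser fibrous tissue holds the interstitial cells and the vessels. By structural class the 54 genes comprised 15 fibrillar, 6 basement membrane network, 4 beaded filament, 3 anchoring fibril, 4 short-chain network, 11 fibril-associated, 3 multiplexin and 4 membrane-spanning genes, and 4 of type XXVIII, which are grouped here as other.

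The study asked how the dioxin-like pollutant PCB126, a coplanar polychlorinated biphenyl that binds the aryl hydrocarbon receptor, alters the testis. Adult zebrafish received the carrier DMSO, 3 nM PCB126 or 10 nM PCB126 for 24 h and were then kept for 7 days in clean water, with 6 RNA libraries of total testis RNA in each group and described as biological replicates. No strain, genotype or age beyond adult is given, and no allele or other agent is named. Whole testis was used, so fewer cells of a type and less RNA per cell cannot be told apart.

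Total counts ran from 16.2 to 29.8 M (M, 1e6) in DMSO, from 21.8 to 29.1 M at 3 nM and from 18.6 to 26.8 M at 10 nM. Collagen genes took 0.122 to 0.154% of the counts in DMSO, 0.0769 to 0.133% at 3 nM and 0.0817 to 0.2% at 10 nM. Germ cell markers summed to between 6080 and 8911 CPM (counts per 1e6 counts of the TMM-scaled library total) and Sertoli cell markers to between 2105 and 4330 CPM over all libraries, both abundant, so the tissue label holds by these markers. In a principal component analysis of all genes, libraries 4 and 6 at 3 nM and 1, 5 and 6 at 10 nM had scores of 48.4 to 138.1 on the leading axis (39.7% of the variance), and the other 13 libraries had scores of -58.4 to -3.8. Mitochondrial transcripts took 3.8 to 7.22% of the counts in those 5 libraries and 1.68 to 3.56% in the others. For the called collagen genes, for those whose direction turned at 10 nM and for some other genes, values are also given without these 5 libraries. All 5 were exposed and were set apart by values of these same data. Their omission is therefore not independent of the changes tested, and smaller changes without them may follow from that choice. The share of all genes called without them is not given here. Levels are in CPM and are not scaled by gene length, so they are compared between groups and not between genes.

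At 10 nM against DMSO, 4 of the 54 collagen genes passed the test across all genes, edgeR's quasi-likelihood test with Benjamini-Hochberg adjustment at 0.05. The fibril-associated gene COL12A1 (ENSDARG00000019601) rose, while the fibrillar gene COL5A2, the multiplexin gene col18a1a and the fibril-associated gene col21a1 fell. These 4 were 7.41% of the collagen genes, while 10.8% of the 24053 genes tested were called, 7.4% higher and 3.44% lower. With both directions pooled, the share among collagens was not above the background. By direction, 1 of 54 was higher, a smaller share than among all genes, and 3 of 54 were lower, a larger share that rests on 3 genes. At an unadjusted p under 0.05, 12 collagen genes differed, 4 higher and 8 lower, or 22.2% beside 33% of all genes. The median log2 fold change was -0.05 for the collagens and 0.06 for all genes. No collagen gene had groups that did not overlap, beside 2.93% of all genes entirely higher and 3.2% entirely lower at 10 nM. DESeq2 called 3 collagen genes higher, the same COL12A1 identifier, col15a1b and col19a1 (ENSDARG00000076163), and 4 lower, COL5A2, col5a2b, col18a1a and col21a1, with 19.2% of all genes called by it.

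At 3 nM against DMSO, edgeR called 0 collagen genes, beside 0.208% of all genes (0.129% higher and 0.079% lower). At an unadjusted p under 0.05, 7 differed, 1 higher and 6 lower, beside 14.2% of all genes, and DESeq2 called 1, COL5A2, lower, with 1.29% of all genes called. The median log2 fold change was -0.16 for the collagens, beside 0.02 for all genes. Of 10 nM against 3 nM, edgeR called 0 collagen genes, beside 0.129% of all genes (0.121% higher and 0.00831% lower). There 9 had an unadjusted p under 0.05, 7 higher and 2 lower, beside 11.8% of all genes, and DESeq2 called 3 higher, COL1A2, col1a1a and COL6A3, with 2.89% of all genes called. The 2 comparisons with DMSO share the same DMSO libraries. Some omissions of a library gave other edgeR calls. Without 10 nM replicate 3, col19a1 (ENSDARG00000076163) was called higher at 10 nM in place of COL12A1 (ENSDARG00000019601). In that omission col5a2b and col28a1b were called lower besides the genes called lower with all libraries. Between the doses, COL1A2 was called higher without 10 nM replicate 2 or 3 and COL6A3 without 10 nM replicate 2, and col28a1b lower without 10 nM replicate 3.

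Without the 5 libraries apart, the 10 nM change turned direction in 18 of the 54 collagen genes, 0 of them called by edgeR with or without these libraries, and the 3 nM change in 8. Genes of type I and type VI were among them. The share of all genes that turned is not given here, so neither count can be read as particular to collagens. COL1A2 went from 0.64 to -0.56, col1a1a from 0.64 to -0.39, COL6A2 from 0.74 to -0.42, COL6A3 from 0.91 to -0.26 and col6a1 from 0.12 to -0.65. COL4A1 went from 0.45 to -0.24, COL5A1 from 0.12 to -0.14, col23a1b from 0.17 to -0.47, col9a3 from 0.20 to -0.13, COL14A1 from 0.10 to -0.07 and COL2A1 (ENSDARG00000011407) from 0.04 to -0.17. Turning upward, col5a3a went from -0.14 to 0.21, col11a1b from -0.04 to 0.26, COL11A1 from -0.20 to 0.06, col18a1b from -0.18 to 0.03, COL9A1 from -0.12 to 0.03, col7a1 from -0.04 to 0.12 and COL2A1 (ENSDARG00000069093) from -0.06 to 0.01.

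**Figure D1:**
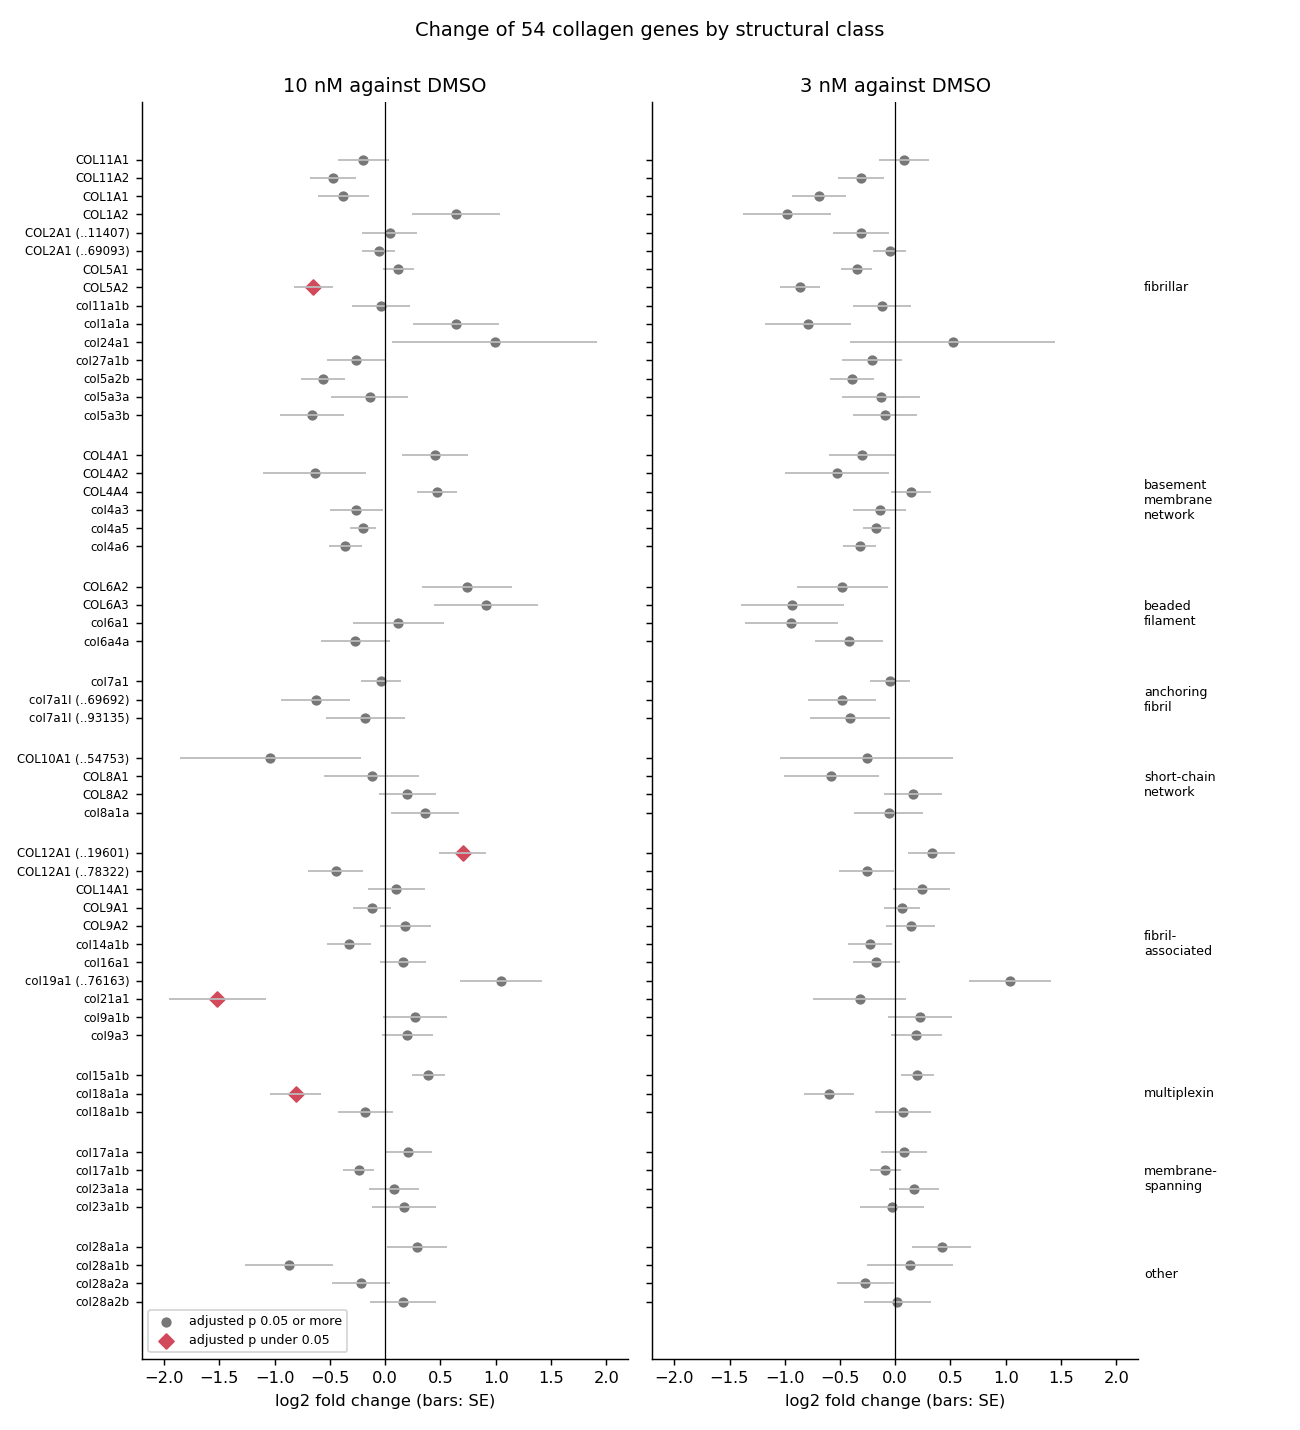
Log2 fold change of each of the 54 collagen genes (points, with SE bars) at 10 nM and at 3 nM against DMSO, from edgeR, grouped by structural class; identifiers are shortened to their last 5 digits. Red diamonds mark the genes with an adjusted p under 0.05: COL5A2, col18a1a, col21a1 and COL12A1 (ENSDARG00000019601) at 10 nM, and 0 genes at 3 nM.

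Among the fibrillar collagens, COL5A2 (ENSDARG00000031678), a chain of the type V collagen that sets the diameter of type I fibrils, was the gene called lower at 10 nM. Its level in DMSO had a lowest value of 75.6, a median of 90.5 and a highest value of 131 CPM. At 3 nM it was 38.3, 54.5 and 69.3 CPM in the same order, and at 10 nM it was 48.5, 55 and 90.2 CPM. All 6 libraries at 3 nM were below all 6 of DMSO, while at 10 nM replicate 6 lay within the DMSO range and the other 5 were below it. The log2 fold change of COL5A2 was -0.65 at 10 nM (SE 0.18, edgeR adjusted p = 0.0351) and -0.86 at 3 nM (SE 0.18, edgeR adjusted p = 0.0694). COL5A2 was the only collagen gene whose groups did not overlap at 3 nM, a state that 0.707% of all genes had in the lower direction and 1.03% in the higher. Without the 5 libraries apart, the 10 nM change was -0.95 with an adjusted p of 0.0219.

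The 10 nM call on COL5A2 was lost without DMSO replicate 1 (adjusted p = 0.0658), 2 (0.0617), 3 (0.064) or 4 (0.058), and without 10 nM replicate 1 (0.0597), 2 (0.0527) or 5 (0.0724), with COL5A2 fold changes between -0.80 and -0.54 over all 18 omissions. The 3 nM comparison of COL5A2 passed without 3 nM replicate 2 (adjusted p = 0.0352) or 10 nM replicate 6 (0.0356).

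The other type V chains did not pass the edgeR test at either dose. COL5A1, the chain that pairs with COL5A2 in the common form of type V, had a lowest, median and highest level of 27.9, 36.7 and 45.4 CPM in DMSO, 24.5, 28.2 and 33.9 CPM at 3 nM, and 31.3, 39.1 and 54.2 CPM at 10 nM. The groups overlapped, and the COL5A1 change was 0.12 at 10 nM (SE 0.14) and -0.35 at 3 nM (SE 0.14). For col5a2b, a second gene of the COL5A2 family, the 10 nM change was -0.56 (SE 0.20, edgeR adjusted p = 0.0698, DESeq2 adjusted p = 0.0339). For col5a3b it was -0.66 (SE 0.29) and for col5a3a -0.14 (SE 0.35).

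Type I collagen is the main fibril-forming collagen of skin, bone and tendon. COL1A1 (ENSDARG00000035809) ranged from 162 to 295 CPM in DMSO with a median of 202, from 96.3 to 166 CPM at 3 nM with a median of 137, and from 114 to 328 CPM at 10 nM with a median of 136. The groups overlapped at both doses, at 3 nM only between 162 and 166 CPM. The COL1A1 change was -0.69 at 3 nM (SE 0.24, edgeR adjusted p = 0.243) and -0.38 at 10 nM (SE 0.23, adjusted p = 0.257), and neither passed. COL1A2, the partner chain, had medians of 71.3, 40 and 85.6 CPM in DMSO, 3 nM and 10 nM, with changes of -0.98 at 3 nM (SE 0.40) and 0.64 at 10 nM (SE 0.40). For col1a1a the medians were 74.9, 47.4 and 89 CPM, with changes of -0.79 (SE 0.39) and 0.64 (SE 0.39).

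The 10 nM values of type I collagen moved with which libraries were kept. Without 10 nM replicate 6, COL1A1 was called lower at 10 nM (-0.71, edgeR adjusted p = 0.0245). Without the 5 libraries apart, all 3 type I genes were below DMSO at 10 nM and uncalled, with changes of -0.68 for COL1A1, -0.56 for COL1A2 and -0.39 for col1a1a. Between the doses, 10 nM exceeded 3 nM by 1.62 for COL1A2 (edgeR adjusted p = 0.0879, DESeq2 adjusted p = 0.00624) and by 1.43 for col1a1a (0.115 and 0.0182), and without those 5 libraries by 0.43 and 0.30.

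The cartilage-type fibrillar chains showed no call at either dose. At 10 nM the change was 0.04 (SE 0.25) and -0.06 (SE 0.15) for the COL2A1 identifiers ENSDARG00000011407 and ENSDARG00000069093, which encode type II collagen, the fibril former of cartilage. For the type XI chains that join type II fibrils, it was -0.20 (SE 0.23) for COL11A1, -0.47 (SE 0.21) for COL11A2 and -0.04 (SE 0.26) for col11a1b. The minor fibrillar gene col27a1b changed by -0.26 (SE 0.27). col24a1, another minor fibrillar gene, had levels from 0.339 to 4.29 CPM in DMSO, from 0.0785 to 6.01 CPM at 3 nM and from 0.107 to 7.91 CPM at 10 nM, and its 10 nM change of 0.99 had an SE of 0.93.

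**Figure D2:**
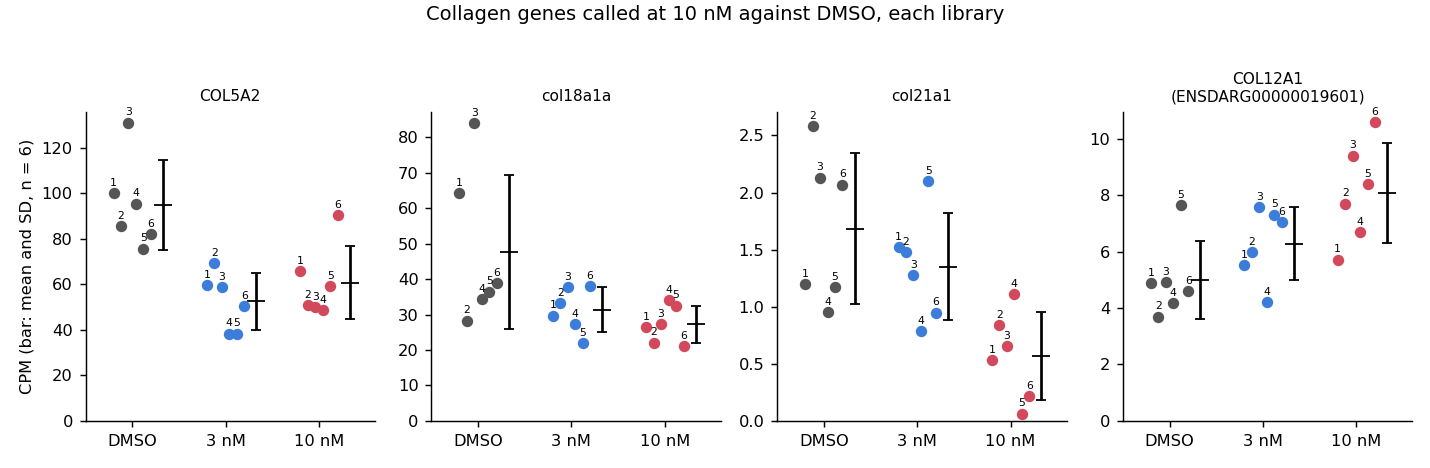
CPM of the 4 collagen genes called at 10 nM against DMSO, with a point for each of 6 libraries per group, numbered by replicate, and the mean and SD beside them. At 10 nM, COL5A2 lay between 48.5 and 90.2 CPM, col18a1a between 21.1 and 34.1, col21a1 between 0.0646 and 1.11 and COL12A1 between 5.72 and 10.6, and for each gene the DMSO and 10 nM points overlap.

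Of the fibril-associated collagens, which carry interruptions in the helix and bind fibril surfaces, 1 rose and 1 fell at 10 nM. COL12A1 (ENSDARG00000019601), a type XII chain that links fibrils to the surrounding matrix, had a lowest, median and highest level of 3.7, 4.75 and 7.65 CPM in DMSO. The values were 4.2, 6.51 and 7.58 CPM at 3 nM and 5.72, 8.05 and 10.6 CPM at 10 nM. DMSO replicate 5, at 7.65 CPM, lay inside the 10 nM range and the other DMSO libraries lay below it. The log2 fold change was 0.70 at 10 nM (SE 0.21, edgeR adjusted p = 0.0391) and 0.33 at 3 nM (SE 0.21, adjusted p = 0.443). The COL12A1 call was lost without DMSO replicate 1 (adjusted p = 0.0723), 2 (0.0955), 3 (0.0569), 4 (0.0783) or 6 (0.0791), without 3 nM replicate 1 (0.0514), without 10 nM replicate 3 (0.0553), 5 (0.0831) or 6 (0.0822), and without the 5 libraries apart (0.65, adjusted p = 0.115).

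The second identifier named COL12A1 (ENSDARG00000078322) pointed the other way without passing. It had a lowest, median and highest level of 76.5, 84.8 and 106 CPM in DMSO and of 37, 69.5 and 95.8 CPM at 10 nM, with a change of -0.45 (SE 0.25, edgeR adjusted p = 0.204). Reads of 50 bases from near-identical copies may be shared between such identifiers, and how the counting treated shared reads is not given in these sources.

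col21a1, a type XXI chain, fell at 10 nM. It was low in every library, with 27 to 74 counts in DMSO, which equals 0.956 to 2.58 CPM with a median of 1.64. At 3 nM it ranged from 0.785 to 2.1 CPM with a median of 1.38, and at 10 nM from 0.0646 CPM, a count of 1 in replicate 5, to 1.11 CPM with a median of 0.593. Only 10 nM replicate 4 reached the DMSO range. The col21a1 change was -1.52 at 10 nM (SE 0.44, edgeR adjusted p = 0.0361) and -0.32 at 3 nM (SE 0.42, adjusted p = 0.707). The call was lost without DMSO replicate 1 (adjusted p = 0.0525), 2 (0.089), 3 (0.0546) or 6 (0.0711), without 10 nM replicate 1 (0.0766), 5 (0.0629) or 6 (0.0682), and without the 5 libraries apart, where the col21a1 change was -0.96 (adjusted p = 0.152).

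The other fibril-associated genes did not pass the edgeR test. col19a1 (ENSDARG00000076163), a type XIX chain, ranged from 0.226 to 1.17 CPM in DMSO, from 0.77 to 2.02 CPM at 3 nM and from 0.752 to 2.41 CPM at 10 nM, with changes of 1.04 at 3 nM (SE 0.37, edgeR adjusted p = 0.262) and 1.05 at 10 nM (SE 0.37, adjusted p = 0.0698). The type IX genes, whose product coats type II fibrils, had 10 nM changes of -0.12 (COL9A1, SE 0.17), 0.18 (COL9A2, SE 0.23), 0.27 (col9a1b, SE 0.29) and 0.20 (col9a3, SE 0.23). The type XIV genes, which regulate fibril spacing, had changes of 0.10 (COL14A1, SE 0.26) and -0.33 (col14a1b, SE 0.20), and col16a1 had 0.16 (SE 0.21).

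Among the multiplexins, basement membrane proteoglycans with a collagen core, col18a1a fell at 10 nM. Type XVIII collagen is the precursor of endostatin, a fragment that limits vessel growth. In DMSO the lowest, median and highest col18a1a levels were 28.3, 37.7 and 84 CPM, with replicates 1 and 3 the highest. They were 22, 31.5 and 38.1 CPM at 3 nM and 21.1, 26.9 and 34.1 CPM at 10 nM, and the DMSO and 10 nM groups overlapped between 28.3 and 34.1 CPM. The change was -0.81 at 10 nM (SE 0.23, edgeR adjusted p = 0.0365) and -0.60 at 3 nM (SE 0.23, adjusted p = 0.283). The call on col18a1a was lost without DMSO replicate 1 (adjusted p = 0.0823) or 3 (0.0701), without 10 nM replicate 1 (0.0752), 2 (0.0542), 5 (0.0591) or 6 (0.072), and without the 5 libraries apart (-0.78, adjusted p = 0.203).

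The related col18a1b had a 10 nM change of -0.18 (SE 0.25). The type XV gene col15a1b, whose product bridges basement membranes and fibrils, ranged from 4.2 to 6.21 CPM in DMSO, from 4.87 to 7.01 CPM at 3 nM and from 6.06 to 7.69 CPM at 10 nM. The DMSO and 10 nM groups overlapped only between 6.06 and 6.21 CPM, and the col15a1b change of 0.39 (SE 0.15) had an edgeR adjusted p of 0.0839 and a DESeq2 adjusted p of 0.0433.

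None of the 6 type IV genes, which form the basement membrane network, passed the edgeR test at 10 nM, and 2 had an unadjusted p under 0.05. COL4A4 had a lowest, median and highest level of 4.02, 4.83 and 7.17 CPM in DMSO and of 5.93, 6.64 and 9.19 CPM at 10 nM, groups that overlapped, with a change of 0.47 (SE 0.18, edgeR adjusted p = 0.0842). The 10 nM change of col4a6 was -0.36 (SE 0.15, adjusted p = 0.114). col4a5, its partner in a network found in some specialised membranes, ranged from 33.5 to 43.5 CPM in DMSO, from 30 to 41 CPM at 3 nM and from 28.4 to 45.9 CPM at 10 nM, with a change of -0.20 (SE 0.12). col4a3 had a change of -0.26 (SE 0.24).

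COL4A1 and COL4A2 encode the chains that form the type IV network of nearly all basement membranes, and they differed in which libraries were low. COL4A2 ranged from 9.53 to 13.1 CPM in DMSO, from 2.32 to 16.5 CPM at 3 nM and from 2.39 to 13 CPM at 10 nM. COL4A1 ranged from 8.75 to 21.2 CPM in DMSO, from 6.59 to 13.7 CPM at 3 nM and from 9.67 to 33.6 CPM at 10 nM. The 10 nM change was 0.45 for COL4A1 (SE 0.30) and -0.64 for COL4A2 (SE 0.47), and without the 5 libraries apart it was -0.24 and -0.08.

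The type VI genes, which form beaded filaments around cells, had 0 edgeR calls at either dose. At an unadjusted p under 0.05 there were 0 and 1 of the 4 at 10 and 3 nM. The 10 nM change of COL6A3 turned on replicate 6. COL6A3 had a lowest, median and highest level of 21.7, 30.2 and 48.9 CPM in DMSO, of 10.1, 16.3 and 29.3 CPM at 3 nM and of 18.5, 31.5 and 205 CPM at 10 nM. Its 205 CPM in 10 nM replicate 6 lay far above every other library. The COL6A3 change was 0.91 at 10 nM (SE 0.47, edgeR adjusted p = 0.181) and -0.93 at 3 nM (SE 0.47, adjusted p = 0.376). Without 10 nM replicate 6 the COL6A3 change at 10 nM was -0.02, and without the 5 libraries apart it was -0.26. At 3 nM the changes were -0.48 for COL6A2 (SE 0.41), -0.94 for col6a1 (SE 0.42) and -0.42 for col6a4a (SE 0.31), all below 0, and at 10 nM they were 0.74 (SE 0.41), 0.12 (SE 0.41) and -0.27 (SE 0.31).

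Summed over their 4 genes, type VI transcripts ranged from 97.7 to 158 CPM in DMSO, from 46.7 to 119 CPM at 3 nM and from 73.3 to 476 CPM at 10 nM. The 3 type I genes summed to 271 to 600 CPM in DMSO, to 174 to 282 CPM at 3 nM and to 240 to 1044 CPM at 10 nM. In both sums 10 nM replicate 6 was the highest of all libraries. It was the highest library of its group for 6 of the 7 type I and VI genes, and DMSO replicate 1 was the highest of its group for 6 of the 7 as well. Over all genes tested, those libraries were the highest of their group for 18% and 22.2%.

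A skin keratin gene was high in both of those libraries and in a few others. The skin keratin gene krt5 stood at 668 CPM in DMSO replicate 1, 144 in 3 nM replicate 1, 422 in 10 nM replicate 4 and 219 in 10 nM replicate 6, and at 36.4 CPM or less elsewhere, while the surface keratin gene krt4 reached 954 CPM in 10 nM replicate 6. In DMSO replicate 1 the type I sum was 600 CPM and the type VI sum 158, the highest of that group. The sums in 10 nM replicate 6 were 1044 and 476 CPM, again the highest of the group. In 10 nM replicate 4 the type I sum was 280 CPM and the type VI sum 105, below the group medians of 301 and 114. In 3 nM replicate 1 they were 282 and 87.3 CPM, above the group medians of 222 and 81.6. The 13 cartilage, bone and skin markers summed to 137 to 1103 CPM in DMSO, 109 to 823 at 3 nM and 173 to 1271 at 10 nM. The 17 stromal and smooth muscle markers summed to 349 to 999 CPM in DMSO, 237 to 464 at 3 nM and 329 to 984 at 10 nM, with the stromal receptor gene PDGFRA at 65.1 CPM in 10 nM replicate 6 and at 5.8 to 34.9 CPM elsewhere. No marker on either list was at 0 in every library. The part of these markers in the collagen values was not tested. Without the 4 libraries with more than 100 CPM of krt5, an omission chosen after seeing the data, edgeR called 0 collagen genes at 10 nM, with changes of -0.75 for COL5A2 (adjusted p = 0.0605), -0.73 for col18a1a (0.123), -1.73 for col21a1 (0.073) and 0.63 for COL12A1 (ENSDARG00000019601, 0.131). With all libraries these changes were -0.65, -0.81, -1.52 and 0.70.

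**Figure D3:**
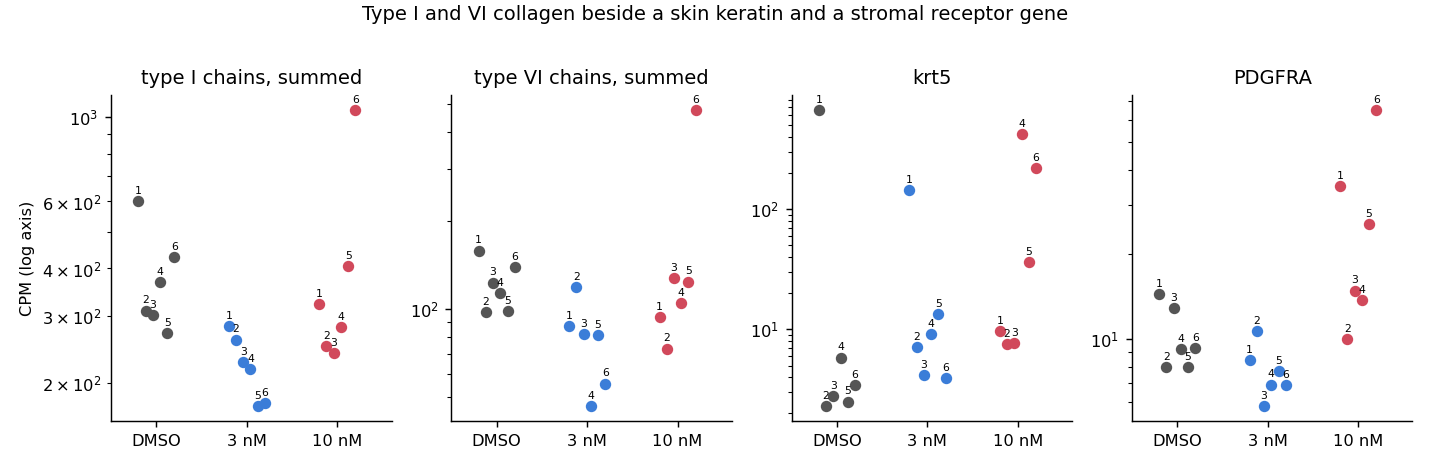
Summed CPM of the 3 type I and the 4 type VI genes, and CPM of the skin keratin gene krt5 and the stromal receptor gene PDGFRA, with a point for each library numbered by replicate, on log axes. In 10 nM replicate 6 the type I sum was 1044 CPM, the type VI sum 476, krt5 219 and PDGFRA 65.1, and krt5 was highest in DMSO replicate 1 at 668 CPM.

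The remaining classes held no called gene. Of the 3 anchoring fibril genes, whose type VII product ties basement membranes to fibrils, col7a1 had a lowest, median and highest level of 10.8, 16 and 17.6 CPM in DMSO and of 9.5, 15.6 and 17.2 CPM at 10 nM. Its groups overlapped almost fully, with a col7a1 change of -0.04 (SE 0.18), and col7a1l (ENSDARG00000069692) had a change of -0.63 (SE 0.31, edgeR adjusted p = 0.171). Of the short-chain network genes, COL8A2, a type VIII chain, had a change of 0.20 (SE 0.26), COL8A1 one of -0.12 (SE 0.43) and col8a1a one of 0.36 (SE 0.31). COL10A1 (ENSDARG00000054753), a chain typical of hypertrophic cartilage, had 5 to 12 counts in 5 DMSO libraries and 105 in DMSO replicate 1. Its change of -1.04 (SE 0.82) was 0.52 without DMSO replicate 1.

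The membrane-spanning genes are col17a1a and col17a1b, of the type XVII collagen of hemidesmosomes, and col23a1a and col23a1b, of type XXIII. Their 10 nM changes lay between -0.24 and 0.21. col17a1b ranged from 16 to 24.5 CPM in DMSO and from 13 to 22.2 CPM at 10 nM, with a change of -0.24 (SE 0.14, edgeR adjusted p = 0.237). Of the type XXVIII genes, col28a1b had a lowest, median and highest level of 0.651, 1.72 and 2.3 CPM in DMSO and of 0.393, 0.644 and 2.3 CPM at 10 nM, where replicate 3 alone equalled the DMSO maximum. Its change was -0.87 (SE 0.40, edgeR adjusted p = 0.143), and it passed, at -1.44 (adjusted p = 0.0156), without 10 nM replicate 3. col28a2b had a change of 0.16 (SE 0.30).

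Chains of the same collagen type can wind into the same helix, and the log2 ratio of the counts of 2 chains does not depend on library scaling. The ratios are of RNA and do not give the makeup of the proteins. The type V ratio left out col5a2b, the second gene of the COL5A2 family. In all, 5 chain pairs were compared in the 3 contrasts, giving 15 exact two-sided permutation tests of 924 arrangements each, with 0.00216 as the smallest p possible and Benjamini-Hochberg adjustment over the 15. The ratio of COL5A1 to COL5A2 was -1.37 ± 0.30 (SD, n = 6) in DMSO, between -1.82 and -1.06. It was -0.84 ± 0.40 (SD, n = 6) at 3 nM, between -1.16 and -0.17, and -0.60 ± 0.12 (SD, n = 6) at 10 nM, between -0.74 and -0.41. All 6 libraries at 10 nM were above all 6 of DMSO. The difference was 0.76 (exact permutation p = 0.00216, the smallest possible, adjusted p = 0.0325) at 10 nM and 0.52 (exact permutation p = 0.0303, adjusted p = 0.0909) at 3 nM. With each of the 18 libraries left out in turn, the adjusted p at 10 nM was 0.0162 to 0.0325. Groups that do not overlap stay apart whichever library is left out. These omissions could therefore hardly have changed the outcome and are no test of it. With 3 libraries left at 10 nM after omitting the 5 apart, the difference was 0.79 with an adjusted p of 0.143. Fewer arrangements are possible there and the smallest p is larger than 0.00216, so this adjusted p cannot be compared with the others.

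A difference in 2 other chain ratios passed with all libraries, and in most omissions of a library it kept its direction with an adjusted p above the threshold. The ratio of col1a1a with COL1A1 to COL1A2 was 1.45 ± 0.55 (SD, n = 6) at 10 nM and 2.22 ± 0.30 (SD, n = 6) at 3 nM. Of the 10 nM libraries, replicates 1, 5 and 6, all among the 5 apart, had ratios of 0.96, 0.72 and 1.26. Replicates 2, 3 and 4 had 1.97, 1.97 and 1.82, beside 1.86 to 2.69 at 3 nM. The groups overlapped, and their difference was -0.77 (exact permutation p = 0.00866, adjusted p = 0.0433). With a library left out, the difference was -0.88 to -0.63 and its adjusted p 0.0216 to 0.122, above the threshold in 14 of 18 omissions. Of those 14, 5 left out a DMSO library, which is not in this comparison, so the difference stayed at -0.77 and only the adjustment over the other tests changed (adjusted p = 0.0649). The ratio of col6a1 to COL6A2 was -1.27 ± 0.27 (SD, n = 6) at 3 nM and -0.79 ± 0.14 (SD, n = 6) in DMSO, again overlapping, with a difference of -0.48 (exact permutation p = 0.00866, adjusted p = 0.0433). With a library left out, the difference was -0.57 to -0.43 and its adjusted p 0.0162 to 0.0844, above the threshold in 13 of 18 omissions, of which 3 left out a 10 nM library.

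The ratio of COL4A1 to COL4A2 had no call but fell into separate levels among exposed libraries. It was 0.22 ± 0.40 (SD, n = 6) in DMSO, 0.86 ± 1.32 (SD, n = 6) at 3 nM and 1.49 ± 1.58 (SD, n = 6) at 10 nM, with adjusted p values of 0.363 and 0.26 by exact permutation. At 10 nM, replicates 1, 5 and 6 had ratios of 2.63, 3.48 and 2.52, and replicates 2, 3 and 4 of 0.30, -0.43 and 0.46. At 3 nM, replicates 1, 4 and 6 had ratios of 1.27, 2.50 and 2.22, above all DMSO libraries. Leaving out the 5 libraries apart gave differences from DMSO of -0.11 at 10 nM and -0.12 at 3 nM. The ratio of col4a5 to col4a6 was 0.05 ± 0.21 (SD, n = 6) in DMSO and 0.21 ± 0.21 (SD, n = 6) at 10 nM (adjusted exact permutation p = 0.289).

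**Figure D4:**
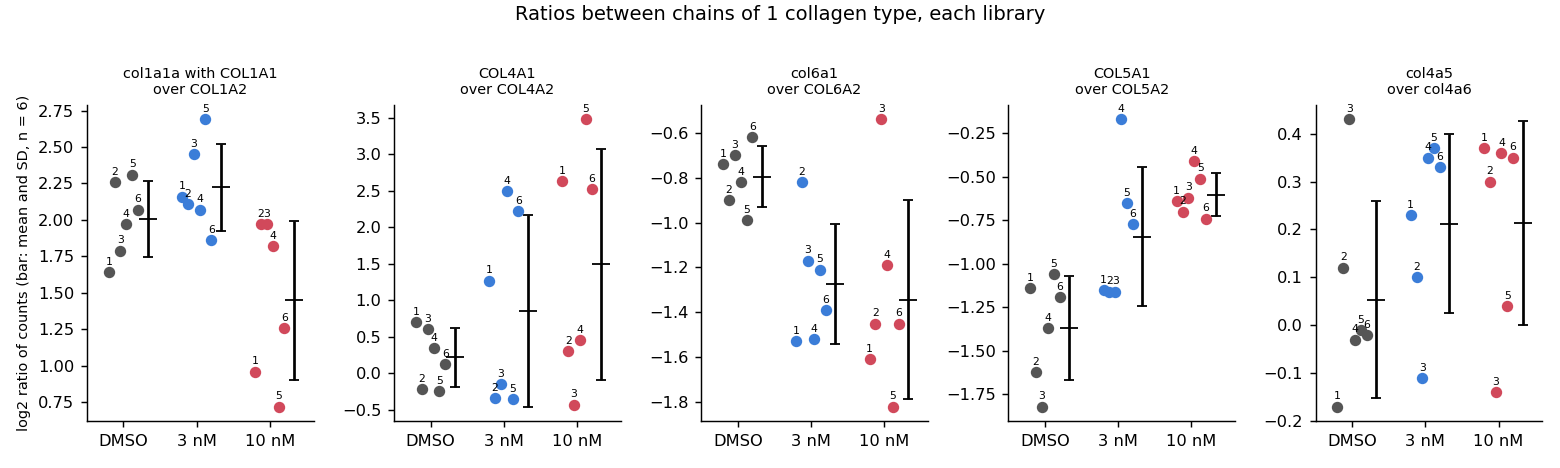
Log2 ratio of the counts of 2 chains of the same collagen type, with a point for each library numbered by replicate and the mean and SD of 6 libraries beside them. The COL5A1 to COL5A2 ratio lay between -0.74 and -0.41 at 10 nM and between -1.82 and -1.06 in DMSO, while the COL4A1 to COL4A2 ratio reached 3.48 in 10 nM replicate 5.

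The collagen genes, like all genes tested, varied more between libraries of a group at 10 nM than in the other groups. The SD of log2 CPM had a median over the 54 genes of 0.37 for the DMSO group, of 0.37 for 3 nM and of 0.54 for 10 nM, beside 0.29, 0.40 and 0.49 for all genes tested. col24a1 was the most variable in every group, with SDs of 1.39, 2.18 and 2.3. The least variable gene was col4a5 in DMSO (0.13), col14a1b at 3 nM (0.10) and col15a1b at 10 nM (0.13).

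Genes whose products fold, cut, cross-link, bind or break down collagen were counted in fixed lists, against the same backgrounds of 7.4% higher and 3.44% lower at 10 nM. Of 28 tested genes of collagen folding, modification and export, 3 rose and 1 fell at 10 nM, with a median change of 0.01. PLOD2, a lysyl hydroxylase that prepares collagen for cross-linking, averaged 2.81 ± 0.595 CPM (SD, n = 6) in DMSO and 7.84 ± 7.08 CPM (SD, n = 6) at 10 nM, a change of 1.48 (SE 0.43, edgeR adjusted p = 0.0364). The PLOD2 change was 0.85 (adjusted p = 0.103) without 10 nM replicate 6 and 0.59 (adjusted p = 0.28) without the 5 libraries apart. PPIB, a prolyl isomerase of collagen folding, rose by 0.58 (SE 0.17, adjusted p = 0.0384) and CREB3L1, a transcription factor of secretory cells, by 0.83 (SE 0.25, adjusted p = 0.0393). PLOD3, another lysyl hydroxylase, had a change of -0.59 (SE 0.18, adjusted p = 0.0409). Each of these 4 calls was lost in 8 of 18 omissions of a library and also without the 5 libraries apart, where PPIB had a change of 0.20, CREB3L1 of 0.58 and PLOD3 of -0.42.

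Of 23 genes of propeptide cleavage and cross-linking, 2 rose and 1 fell, with a median of -0.02. LOX, the lysyl oxidase that starts collagen cross-links, was 2.44 to 3.84 CPM in DMSO and 5.02 to 13.5 CPM at 10 nM. The groups did not overlap, and the LOX change was 1.35 (SE 0.25, edgeR adjusted p = 0.00597), or 0.88 (adjusted p = 0.0362) without the 5 libraries apart. LOXL4 (ENSDARG00000025089), a lysyl oxidase relative, was 0.487 to 0.947 CPM in DMSO and 1.5 to 3.62 CPM at 10 nM, again without overlap, with a change of 1.72 (SE 0.33, edgeR adjusted p = 0.00657). LOXL4 gave 1.22 (adjusted p = 0.0537) without those 5 libraries. LOXL3 (ENSDARG00000039563) fell (-0.33, SE 0.10, adjusted p = 0.0445), a call lost in 11 of 18 omissions, and LOXL2 had a change of -0.64 (SE 0.23, adjusted p = 0.0762). A second identifier named LOXL4 (ENSDARG00000105442) had a change of -0.16 (adjusted p = 0.613) and a second LOXL3 (ENSDARG00000076306) one of 0.70 (adjusted p = 0.174).

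Of 18 genes of collagen breakdown and its inhibitors, 5 rose and 0 fell at 10 nM by edgeR, with a median of 0.34, and DESeq2 called 5 higher and 1 lower. The collagenase gene mmp13a was 0.829 to 1.61 CPM in DMSO and 2.74 to 352 CPM at 10 nM, without overlap. Its change was 6.15 (SE 1.05, edgeR adjusted p = 0.00336), and 1.82 (adjusted p = 0.00395) without the 5 libraries apart. TIMP2 (ENSDARG00000075261), an inhibitor of such enzymes, was 8.74 to 11.3 CPM in DMSO and 15.1 to 86.1 CPM at 10 nM, a change of 2.19 (SE 0.33, adjusted p = 0.00134), and TIMP4 (ENSDARG00000102617), another inhibitor, changed by 4.61 (SE 0.72, adjusted p = 0.00194). When the 5 libraries apart were left out, they changed by 1.34 (adjusted p = 0.00912) and 2.81 (adjusted p = 0.0295). Second identifiers of both symbols did not pass, TIMP2 (ENSDARG00000061226) at 0.42 (adjusted p = 0.24) and TIMP4 (ENSDARG00000100795) at 0.77 (adjusted p = 0.134). Both identifiers named MMP14, a membrane-bound collagenase, rose, ENSDARG00000002235 from 23.6 ± 5.98 to 47.4 ± 10.8 CPM (SD, n = 6 each). Of the leukocyte markers, 4 of 14 tested rose at 10 nM, beside 7.4% of all genes (1 marker without the 5 libraries apart). The summed level of these markers was 200 to 405 CPM in DMSO, 182 to 305 at 3 nM and 207 to 1339 at 10 nM, with no marker at 0 in every library. Their part in the result was not tested.

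**Figure D5:**
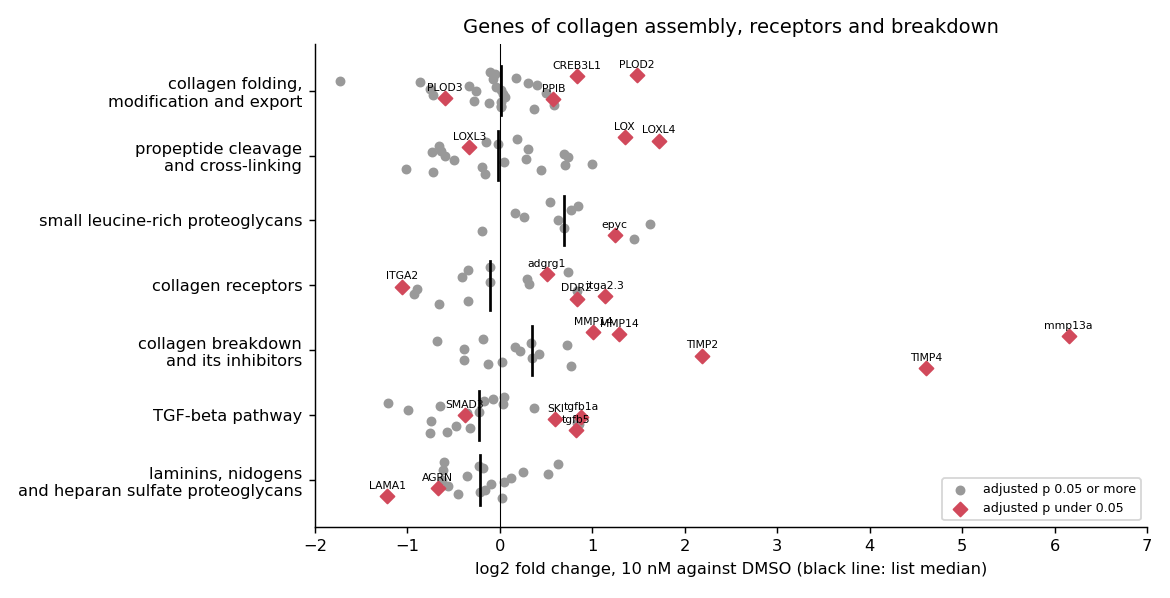
Log2 fold change at 10 nM against DMSO (edgeR) of the genes in 7 fixed lists of collagen assembly, partners, receptors and breakdown, with a point per gene, a black line at each list's median and named red diamonds at an adjusted p under 0.05. The largest changes are those of mmp13a at 6.15, TIMP4 at 4.61 and TIMP2 at 2.19.

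The lists of collagen partners and receptors were counted beside the same 7.4% higher and 3.44% lower over all genes at 10 nM. The list of small leucine-rich proteoglycans, which coat fibrils, also held DPT, which is not of that family. Of its 11 genes tested, epyc rose by 1.24 (SE 0.36, edgeR adjusted p = 0.0354), 0 fell and the median was 0.69. The epyc call was lost in 8 of 18 omissions of a library and without the 5 libraries apart (0.45, adjusted p = 0.123). The list's median was 0.23 without those 5. Of 16 receptors, 3 rose (itga2.3, an integrin chain, by 1.14, the collagen receptor kinase DDR2 (ENSDARG00000100693) by 0.83 and adgrg1 by 0.51) and 1 fell (ITGA2, a collagen-binding integrin chain, at -1.06), with adjusted p values of 0.0179, 0.026, 0.0492 and 0.0194 by edgeR. A second identifier named DDR2 (ENSDARG00000058695) had a change of 0.31 (adjusted p = 0.269). In the 13 libraries without those apart, the changes were 0.64 for itga2.3, 0.58 for DDR2, 0.40 for adgrg1 and -0.87 for ITGA2. There edgeR called 0 receptors, with an unadjusted p under 0.05 for 5 higher and 2 lower. The share of all genes under either threshold in those 13 libraries is not given here, so these counts cannot be read as particular to receptors.

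Of 21 genes of the TGF-beta pathway, a main inducer of collagen genes, tgfb5 (0.82), tgfb1a (0.88) and the pathway repressor SKI (0.60) rose and the signal transducer SMAD3 (ENSDARG00000036096, -0.38) fell, with a list median of -0.23 and adjusted p values of 0.0315 to 0.0458. A second SMAD3 (ENSDARG00000010207) had a change of -0.17 (adjusted p = 0.373). In the 13 other libraries, 0 were higher and SMAD3 alone was called lower (-0.46, adjusted p = 0.0379), while tgfb5 had a change of 0.64, tgfb1a of 0.46 and SKI of 0.26. Of 19 laminins, nidogens and heparan sulfate proteoglycans, the other components of basement membranes, 0 rose and 2 fell, with a median of -0.21. AGRN fell by 0.67 on the log2 scale (adjusted p = 0.0156), and this call held in each of 18 omissions of a library. LAMA1 fell by 1.22 on the log2 scale (adjusted p = 0.0481), a call lost in 14 of them and, at -0.68 (adjusted p = 0.0695), without the 5 libraries apart.

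At 3 nM, edgeR called 0 genes in each of these 7 lists, and the medians were -0.07 for folding, -0.29 for cleavage and cross-linking, 0.19 for the small proteoglycans, -0.14 for receptors, 0.06 for breakdown, -0.20 for TGF-beta and -0.32 for laminins and their partners. At an unadjusted p under 0.05 each list had 1 to 2 genes higher and 1 to 4 lower, beside 14.2% of all genes in either direction. DESeq2 called 0 higher and between 0 and 2 lower per list there, beside 1.29% of all genes.

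Among the cell type marker lists at 10 nM, 2 of 17 stromal and smooth muscle genes rose (PDGFRA and twist1a) and 3 fell, the smooth muscle identifiers TAGLN (ENSDARG00000045408) at -1.30, MYH11 (ENSDARG00000009782) at -1.06 and CNN1 (ENSDARG00000102398) at -1.30. Second identifiers of these symbols did not pass and pointed both ways, with TAGLN (ENSDARG00000033466) at 0.60, MYH11 (ENSDARG00000100972) at 1.33 and CNN1 (ENSDARG00000017193) at -0.97. With the 5 libraries apart left out, edgeR called 0 genes of this list (0 higher and 4 lower at an unadjusted p under 0.05), and the changes were 0.31 for PDGFRA, 0.58 for twist1a, -1.65 for TAGLN (ENSDARG00000045408) and -0.76 for MYH11 (ENSDARG00000009782). Blood vessel markers had 0 calls among 13 genes by edgeR and by DESeq2, with 2 higher and 1 lower at an unadjusted p under 0.05, and intestine and cartilage, bone and skin markers had 2 higher of 8 and 2 higher of 12. Of the intestine genes, CDH17 went from 3.55 to 0.05 and VIL1 from 1.45 to -0.06 without the 5 libraries apart, and there 0 intestine genes and 1 cartilage, bone and skin gene were called. Sertoli cell markers had 1 lower of 8 and Leydig cell markers 2 lower of 7. Germ cell markers had 1 lower of 11 and adipocyte markers 2 lower of 8. Without those 5 libraries the counts were 0, 1, 0 and 0 in that order. Over all genes, 7.4% were called higher and 3.44% lower at 10 nM, and 33% had an unadjusted p under 0.05. The edgeR shares at 3 nM were 0.129% higher and 0.079% lower. The shares of all genes without those 5 libraries are not given here. At 3 nM the only calls in these lists were 2 adipocyte genes, LPL (ENSDARG00000087697) at -1.31 and fabp4a at -1.73. The count fell to 1 in 12 of 18 omissions of a library, and without the 5 libraries apart LPL had a change of -1.22 (adjusted p = 0.204) and fabp4a of -1.72 (adjusted p = 0.0233). The part of changes in cell makeup in the collagen values was not tested.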

How the data were processed

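RNA was measured in 18 testis libraries. The authors deposited raw counts, a whole number for each gene and library. The kit was stranded and reads were 50 bases from 1 end, per the labels' protocols. Build GRCz10 and the tools STAR, HTSeq, FastQC and edgeR come from the submitters' processing notes, which give no versions. Values of close paralogs and overlapping genes are uncertain, since no source used here gives the strand setting or the annotation release. Of 35117 identifiers, 27000 matched a symbol. DNA methylation tables were not used here.

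All 24053 genes kept by filterByExpr were fitted together in R 4.3.3 with edgeR 4.0.16 (TMM scaling, robust quasi-likelihood test, 3 groups in 1 model), with Benjamini-Hochberg adjustment over all genes and calls under 0.05. CPM used library totals scaled by TMM factors, and shares in percent used raw totals. The SE was the log2 fold change divided by the square root of the F statistic. Chain ratios used log2 of counts plus 0.5. DESeq2 1.42.0, upper-quartile scaling, no filter, a replicate block and omissions of libraries were alternatives. Only the main edgeR fit, for 10 nM against DMSO, was tested on simulated data, which held no libraries set apart. The named genes were the called collagens, the member of each class with the highest mean CPM and with the smallest p at 10 nM, and up to 4 genes of each of 16 lists by p. Other members were chosen after their values were seen. The members and lists were chosen with earlier results of these data known. Depth limits low genes: 3 counts are 0.185 CPM of raw counts in the library with the lowest total, a limit that covers counting error only.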

Additional observations from a re-analysis of the deposited data

Results flagged for a closer look

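Single libraries that stood far from the other 5 of their group were found in 11 of the 72 groups of values examined. A chance rate of about 1 in 20 holds only for independent, normally distributed values. These groups overlap, since the sums contain genes that were also examined alone, so the 11 cannot be set against that rate. In 10 nM replicate 6 the sum of all collagen genes was 2306 CPM, beside a highest DMSO value of 1599 CPM. There the type I sum was 1044 CPM, the type VI sum was 476 CPM, COL1A1 was 328 CPM and COL6A3 was 205 CPM. In 10 nM replicate 4, col4a5 stood at 45.9 CPM and col17a1b at 22.2 CPM, each above the other 5 libraries of its group. In 10 nM replicate 3, col28a1b stood at 2.3 CPM. COL12A1 (ENSDARG00000019601) stood at 7.65 CPM in DMSO replicate 5. COL10A1 (ENSDARG00000054753) stood at 3.95 CPM in DMSO replicate 1 and at 2.26 CPM in 3 nM replicate 1, libraries in which krt5 was 668 and 144 CPM.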

How the results depend on the processing

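With all libraries, 1 collagen gene was higher and 3 were lower at 10 nM. DESeq2 gave 3 higher, the fit with no filter on low counts 0 higher, the replicate block 0 higher and 0 lower, the omission of the 5 libraries apart 0 higher and 1 lower, and the omission of the 4 libraries high in krt5, chosen after seeing the data, 0 higher and 0 lower. At 3 nM, DESeq2 gave 1 lower, and for 10 nM against 3 nM it gave 3 higher. With 1 library left out in turn, the counts ran from 0 to 1 higher and 0 to 5 lower at 10 nM, from 0 to 1 lower at 3 nM, and from 0 to 2 higher and 0 to 1 lower for 10 nM against 3 nM. Apart from DESeq2, the share of all genes called in these alternative fits is not given here. A collagen call lost in them therefore cannot be told from fewer calls over all genes, as fits with fewer libraries can give. The labels do not say whether replicate numbers pair the samples. Correlations of the deviations of same-numbered libraries ran from -0.486 to 0.338, and they cannot settle this, since differences between single libraries can hide a pairing.

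The changes that turned direction are given here for the genes chosen by the naming rule, and were uncalled unless said. Without the 5 libraries apart, the 10 nM changes were COL6A3 -0.26, col7a1 0.12, DCN -0.15, EGFL7 -0.24, CORO1A -0.01 (called with all libraries), VIL1 -0.06 (called with all libraries), PIWIL1 0.02 and CEBPA -0.15. The changes against 3 nM were COL1A1 -0.07 and COL5A2 -0.19, and chain ratio differences were -0.11 and -0.12 for COL4A1 to COL4A2 and 0.12 for col6a1 to COL6A2. Without the 4 libraries high in krt5, COL10A1 was 0.86 and the col4a5 to col4a6 difference from 3 nM was -0.07. With 1 library left out, the ranges were -1.38 to 0.52 for COL10A1, -0.02 to 1.1 for COL6A3 and -0.12 to 0.05 for col7a1 at 10 nM, and, against 3 nM, -0.01 to 0.39 for COL1A1, -0.23 to 0.03 for col6a1 to COL6A2 and -0.06 to 0.07 for col4a5 to col4a6. The cause of these changes was not tested. Upper-quartile scaling kept the direction of each named collagen gene and all 4 calls, while PLOD3 (adjusted p = 0.0522), LAMA1 (0.0626) and inha (0.0585) lost their edgeR calls under it.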
